A study of Homo sapiens with 3 samples.

Results

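The chromosome band 8q24, at the distal end of the long arm of chromosome 8, held 728 of the 8723 ChIP-seq peaks of DLD-1/DKK-1 cells, or 8.35%. The peaks were chosen by their position in the authors' lists, as every peak on chromosome 8 with a start of 117700000 or more in the hg18 build of the human genome. A peak with the same start and end in both lists was counted once. The region ran over 28.6 Mb to the end of its last peak at position 146270657, which is 1.06% of the effective genome size of 2700000000 bp used for peak calling. Position is thus what selected these peaks, and their density is given as a description, without a test.

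DLD-1 is a human colorectal adenocarcinoma line in which Wnt/β-catenin signaling is active because of an APC mutation. DLD-1/DKK-1 cells were transduced with a lentiviral, doxycycline-inducible construct for DKK-1 with a V5 tag, whereas DLD-1/Mock cells (Mock below) were the transduced control. The methods name an antibody to DKK-1 for the immunoprecipitation, but the sample records of both immunoprecipitates name anti-V5, so the antibody was not settled here. The remaining library was a pool of input DNA, labelled only as colon cancer cell input, and the cells that entered the pool were not given in the sources used here. After filtering to a maximum of 2 tags per position, the DKK-1 library kept 21312041 tags, the Mock library 24151009 and the input pool 27723787. There was 1 library per condition. No difference between conditions could therefore be set against replicate error, and all intervals below are 95% intervals that cover counting error only. The list of peaks against Mock and the list against input share the DKK-1 library, so presence in both is no repeated observation.

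8q24 is known above all for MYC, a transcription factor gene that drives cell growth and is a classical target of Wnt/β-catenin signaling. The paper reports that in DLD-1 cells DKK-1 changed neither β-catenin transcriptional activity nor the expression of c-Myc, the protein encoded by MYC. MYC is flanked on its telomeric side by PVT1, a long non-coding RNA gene, and on its centromeric side by a gene-poor stretch with long-range enhancers. DKK-1 itself is best known as a secreted antagonist that binds the Wnt co-receptors LRP5 and LRP6, and the ChIP-seq experiment asked at which chromatin sites its nuclear fraction is found. In the RefSeq gene order of GRCh38.p14, MYC is separated by 47 protein-coding genes from EIF3H, near the start of the region, and by 24 from AGO2 (EIF2C2) further towards the telomere. No position of MYC or PVT1 on hg18 was used here, so it was not determined which peaks lie in or next to these genes.

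Along 8q24 there were 25.5 peaks per Mb (interval 23.7 to 27.4). The adjoining part of chromosome 8 from 65 Mb to the region held 29.7 per Mb (28.2 to 31.2), the part below 65 Mb 4.06 (3.58 to 4.59) and all other chromosomes together 2.23 (2.18 to 2.29), over the span between their first and last peaks. Single chromosomes other than 8 and Y ranged from 0.933 to 5.14 per Mb with a median of 1.83. Peak density in 8q24 was therefore of the same order as in the adjoining 52.7 Mb, slightly below it, and above the average of each of these 22 chromosomes. These averages cover whole chromosomes, and single stretches of other chromosomes were about as dense. The stretch from 129 to 132 Mb of chromosome 9 held 96 peaks, and that from 64 to 67 Mb of chromosome 12 held 83. Stretches of the same length in 8q24 held 74 peaks from 127 to 130 Mb and 136 from 124 to 127 Mb. The boundary of the region fell within the dense part of chromosome 8. The last peaks outside it started at 117655939 (32 tags, called against both controls) and 117656821 (22 tags, called only against Mock). The first inside it started at 117726185 (19 tags, only against Mock) and 117741799 (19 tags, both controls).

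Peaks were spread over the whole region, but unevenly. Each of the 28 complete windows of 1 Mb held between 9 and 56 peaks, with a median of 21 and a variance that was 6.22 times the mean. The intervals of densities and shares take peaks as independent, so they are too narrow for peaks that cluster in this way. The median distance between neighbouring peaks was 21648 bp, and 204 of the 727 gaps (28.1%) were no longer than 10000 bp. The richest complete windows began at 124 Mb, with 56 peaks, and at 141 Mb, with 53. The 0.3 Mb between the boundary and 118 Mb held 26 peaks, or 86.7 per Mb, whereas the 0.3 Mb just before the boundary held 6. Over 1 Mb the contrast was smaller, with 46 peaks after the boundary and 36 before it. The 14 peaks that started within 100 kb from 117748740 formed the densest such stretch of 8q24. The poorest complete window, from 134 Mb, held 9 peaks, and the longest gap, from 142542152 to 143040304, was 498153 bp.

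**Figure D1:**
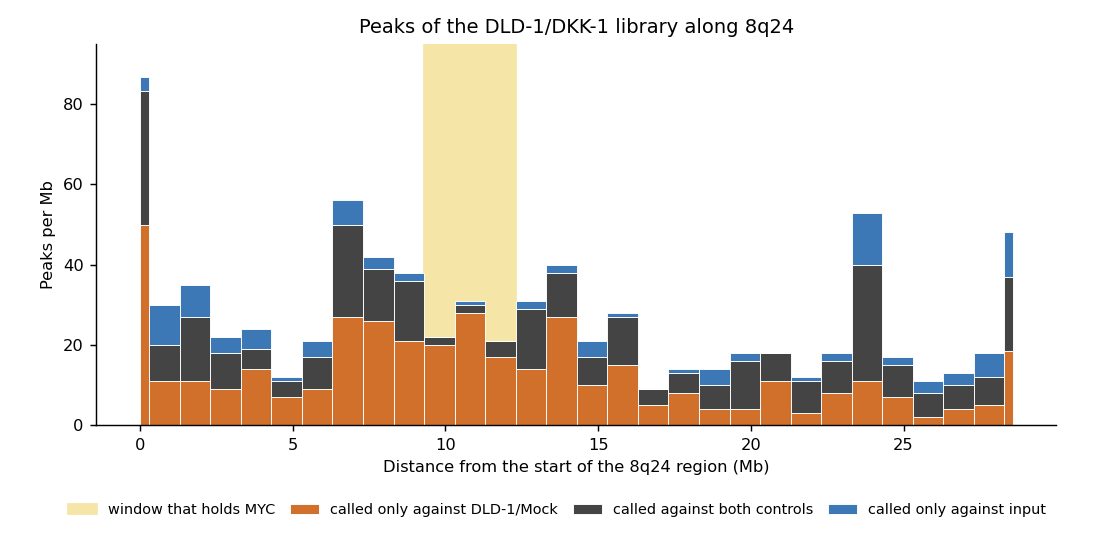
Peaks per Mb (y axis) in windows of 1 Mb against the distance from the start of the 8q24 region in Mb (x axis), stacked by the control against which they were called. The first and last bars are the incomplete windows and are drawn at their true width. The shaded window that holds MYC is close to the mean of the region (24.7 beside 25.5 peaks per Mb) but has few peaks called against input (9 of 74).

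The 127 to 130 Mb window that holds MYC did not stand out by the number of its peaks. It held 74, or 24.7 per Mb (19.4 to 31.0), and the complete windows beginning at 127, 128 and 129 Mb held 22, 31 and 21 peaks. What differed was the control against which they were called. Against Mock there were 73 peaks in the window, or 24.3 per Mb (19.1 to 30.6), beside 21.9 per Mb (20.2 to 23.8) in the rest of 8q24. Against input there were 9, or 3 per Mb (1.37 to 5.69), beside 14.1 per Mb (12.7 to 15.6) in the rest. The windows beginning at 127, 128 and 129 Mb, with 2, 3 and 4 peaks against input, were the lowest of the 28, the last of them tied with the window at 134 Mb, and the median was 10.5. In the list against Mock the same windows held 22, 30 and 21 peaks beside a median of 18. The share called against input depended on where the window was placed. It was 12.2% from 127 to 130 Mb, but 22 of 91 (24.2%) with the window moved 1 Mb towards the centromere and 24 of 83 (28.9%) with it moved 1 Mb towards the telomere.

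Of the 728 peaks of 8q24, 276 were called against both controls, 358 only against Mock and 94 only against input. Presence in both lists applied to 37.9% (Wilson interval 34.5% to 41.5%), close to the 36.6% of all 8723 peaks. Peaks called only against Mock made up 49.2% (45.6% to 52.8%) beside 39.5% over all peaks, and peaks called only against input 12.9% (10.7% to 15.5%) beside 24%. Called against input, alone or with Mock, were 50.8% (47.2% to 54.4%) beside 60.5% over all peaks. There were thus 3.81 peaks called only against Mock for each called only against input, where the adjoining part of chromosome 8 had 2.08 and all other chromosomes 1.46. Outside the MYC window the ratio in 8q24 was 3.15 and the share in both lists 41.0% (37.3% to 44.8%). In the MYC window 65 of 74 peaks, or 87.8% (78.5% to 93.5%), were called only against Mock, 8 against both controls and 1 only against input.

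**Figure D2:**
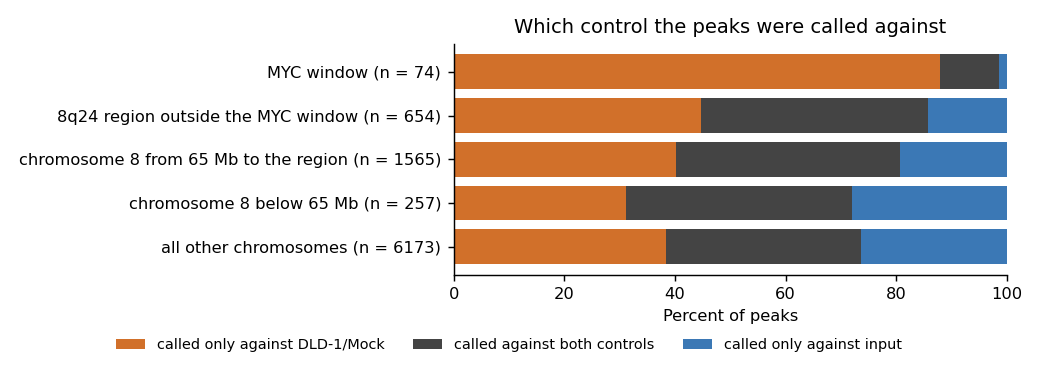
Percent of peaks (x axis) called only against Mock, against both controls or only against input in the MYC window, the rest of 8q24, the other parts of chromosome 8 and all other chromosomes, with the number of peaks in brackets. The share called only against Mock is 87.8% in the MYC window and between 31.1% and 44.8% in the other bars.

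The peaks called only against Mock formed unbroken series in the MYC window. From 128749502 to 129665027, over 0.916 Mb, 34 neighbouring peaks were all called against Mock and not against input, with 13 to 100 tags (median 25) and a fold enrichment of 4.86 to 11.33. This was the longest such series among the 1738 in the whole data, and it was looked for after the counts had been seen. Further series of 17 peaks (127782981 to 128501452) and 13 peaks (127060663 to 127691612) lay in the same window, and no other series in 8q24 reached 10 peaks. A similar pattern was present elsewhere. On chromosome 7 there were series of up to 30 peaks, over 4.05 Mb, and series of 10 to 12 peaks were found on chromosomes 9, 11, 15 and 20. Of the 248 windows of 3 Mb with at least 20 peaks, set every 1 Mb and so overlapping, 12 had a lower share called against input, all of them on chromosome 7, than the 12.2% (6.53% to 21.5%) of the MYC window.

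The 9 peaks of the MYC window that were called against input lay in 4 places. One was at the start, from 127043636 to 127044079 (19 tags), and one from 127694016 to 127694482 (16 tags). Another place held 3 peaks between 128544620 and 128604439 with 28, 27 and 19 tags, the second of them called only against input. The last held 4 peaks between 129691826 and 129823523 with 17, 17, 17 and 13 tags. Their fold enrichment against input ranged from 5.74 to 8.77. None of them was among the 18 peaks of the window with 30 tags or more. Those 18 were all called only against Mock, which is near the 87.8% of all peaks in the window. In the rest of 8q24, 88 peaks had 30 tags or more. Of these, 63 were called against both controls and 20 (22.7%) only against Mock, beside 41.0% and 44.8% of all peaks there.

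The tag-richest peak of 8q24 was in the MYC window, from 128815029 to 128817417. It was 2389 bp wide and held 100 tags (Poisson interval 81.4 to 122), with a fold enrichment of 7.41 and a score of 199.7 against Mock. MACS gives as score the −log10 of a peak's P value multiplied by 10. Further along lay a peak from 128876320 to 128878138 with 86 tags (68.8 to 106) and one from 128890402 to 128892518 with 83 tags (66.1 to 103). Their fold enrichment was 8.56 and 6.97 and their score 213.28 and 194.76. Next in tags were the peaks from 129115512 to 129116946 with 58 tags and from 129050149 to 129051452 with 50, the latter with a fold enrichment of 11.33, and a peak starting at 129088068 also had 50 tags. None of these 6 was called against input. The counting intervals of the 3 richest overlap, so their order is not resolved.

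**Figure D3:**
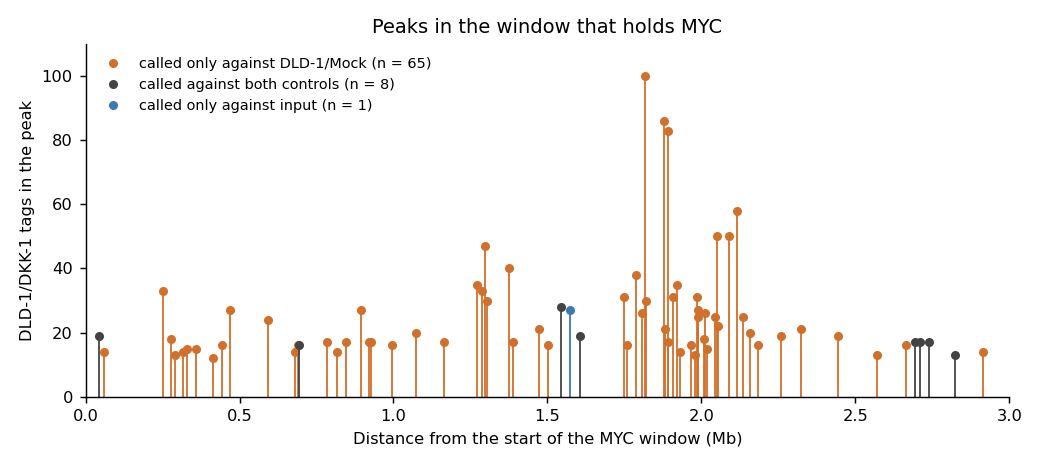
DLD-1/DKK-1 tags in each of the 74 peaks (y axis) against the distance of the peak's centre from the start of the MYC window in Mb (x axis), coloured by the control against which it was called. The 3 richest peaks, with 83 to 100 tags, lie close together. All 18 peaks with 30 tags or more were called only against Mock, as were 65 of the 74 peaks.

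Outside the MYC window the richest peaks were called against both controls. The peak from 124353138 to 124355171 held 88 tags (70.6 to 108) over 2034 bp, with a fold enrichment of 7.68 against Mock and 4.86 against input. The peak from 125556749 to 125558451 held 69 tags (53.7 to 87.3), with a fold enrichment of 5.17 and 4.36. The highest fold enrichment against Mock in 8q24 was 14.35, at 126434158 to 126434857 (34 tags), where it was 7.69 against input. The highest against input was 15.98, at 122020263 to 122020961 (42 tags), where it was 10.21 against Mock. Among the complete windows of 1 Mb, the one from 141 Mb had the most peaks in both lists, with 29, beside 11 called only against Mock and 13 only against input.

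Peaks in 8q24 held a median of 18 tags (range 12 to 100) and were a median of 535 bp wide (256 to 2389). On all other chromosomes the medians were 16 tags and 462 bp, and in the adjoining part of chromosome 8 they were 17 tags and 505 bp. A count of 20 tags or more was reached by 43.1% of the 8q24 peaks (39.6% to 46.8%), by 34.4% (32.1% to 36.8%) in the adjoining part and by 22.3% (21.3% to 23.4%) on all other chromosomes. Within 8q24, peaks called against both controls held a median of 21 tags over 588 bp, those called only against Mock 17 tags over 513.5 bp and those called only against input 17 tags over 508.5 bp. In the MYC window this order was not seen. There the 65 peaks called only against Mock had a median of 20 tags over 558 bp and the 8 called against both controls 17 tags over 492.5 bp. The tags per 100 bp were almost the same throughout, with a median of 3.42 in 8q24 and 3.40 on all other chromosomes, and tags rose with width across the 728 peaks (Spearman's rho 0.94). That correlation is across peaks of 1 library, and both measures derive from the same tags.

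**Figure D4:**
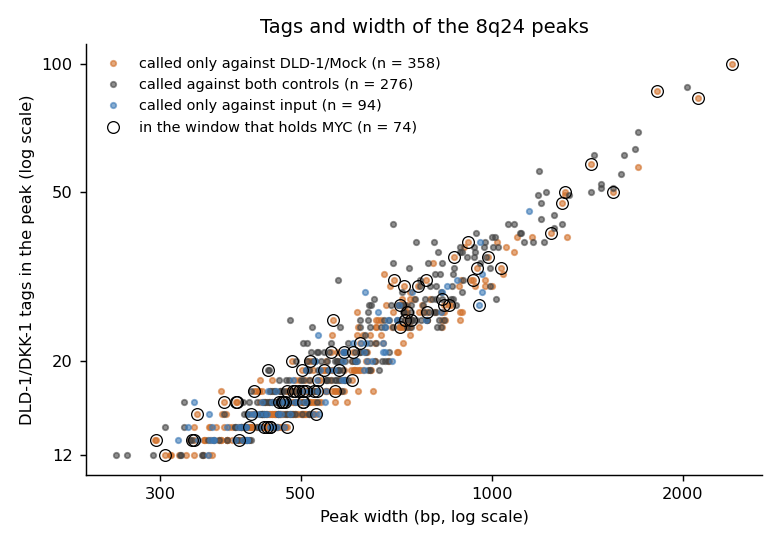
DLD-1/DKK-1 tags (y axis, log scale) against width in bp (x axis, log scale) for each of the 728 peaks of 8q24, coloured by the control against which it was called, with the 74 peaks of the MYC window ringed. Tags and width rise together, and the ringed peaks extend from 12 to 100 tags, the full range of the region.

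Against Mock, low P values made up a larger share of the peaks in 8q24 than in the list as a whole, whereas the share against input and the shares with a high fold enrichment were near those of the lists. In the Mock list 55 of 634 peaks, or 8.68% (6.73% to 11.1%), reached a P value of 1e-10 or below, beside 3.48% of the whole list, 5.62% in the adjoining part of chromosome 8 and 2.26% on all other chromosomes. Against input it was 15 of 370, or 4.05%, with an interval (2.47% to 6.58%) that includes the 2.94% of the whole list and the 3.53% of the adjoining part. A fold enrichment of at least 10 was reached by 59 peaks against Mock, or 9.31% (7.28% to 11.8%), beside 9.12%, and by 30 against input, or 8.11% (5.74% to 11.3%), beside 9.6%. The MYC window contributed 8 peaks at or below this P value and 5 with a fold enrichment of at least 10, in each case against Mock and none against input. Its 9 peaks against input are too few to set these counts of 0 against the list. The empirical FDR given by MACS was at least 33.42% for every peak of 8q24 called against Mock and at least 65.48% for every peak called against input, and the lowest values of the whole lists were 33.17% and 65.44%.

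The fold enrichments also carry the background that MACS used. Where neither the local control nor its surroundings exceed the genome-wide background of 1.18 tags per 150 bp fragment, the fold enrichment is a whole number of tags over that background, here within 0.01 tags. In 8q24 this applied to 190 of the 634 peaks called against Mock (26.5% to 33.6%) and to 86 of the 370 against input (19.2% to 27.8%). On all other chromosomes it applied to 38.5% (37.1% to 39.9%) and 44.4% (42.8% to 46.0%). In the adjoining part of chromosome 8 it applied to 37.1% (468 of 1263) and 26.7% (250 of 936), and below 65 Mb to 29.2% (54 of 185) and 39.5% (70 of 177). In the MYC window it applied to 15 of 73 peaks against Mock and 0 of 9 against input. The share in 8q24 was thus near that below 65 Mb in the Mock list and near that of the adjoining part in the input list, and the part of the control background in the distribution of the peaks was not tested.

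The tags and summit of a peak called against both controls were the same in both lists, so its 2 fold enrichments differ only through the control. For the 276 such peaks in 8q24 the fold enrichment against Mock divided by that against input had a median of 1.02 (quartiles 0.983 and 1.21, range 0.639 to 2.34). It was above 1 at 152 peaks, below 1 at 89 and equal to 1 at 35. On all other chromosomes the median was 1 and 27.6% of the peaks had equal values, beside 12.7% in 8q24. In the adjoining part of chromosome 8 the median was 1.04 and 14.7% had equal values, and below 65 Mb the median was 1 and 15.2% had equal values, so a low share of equal values was common to chromosome 8. Among the 8 shared peaks of the MYC window the ratio ranged from 0.893 to 1.27.

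**Figure D5:**
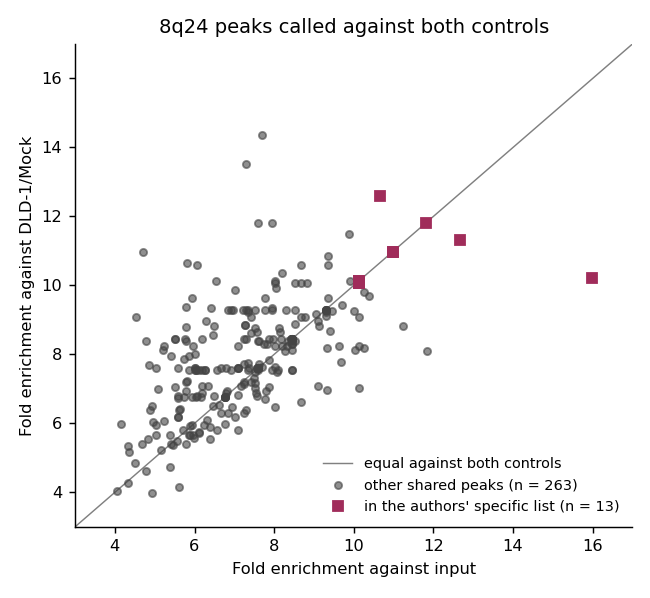
Fold enrichment against Mock (y axis) and against input (x axis) for the 276 peaks of 8q24 called against both controls, with the line of equality. The 13 peaks of the authors' specific list are marked, and all of them lie above 10 on both axes. Points above the line (152 peaks) outnumber those below it (89 peaks).

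The authors' list of specific sites contained 13 of the 276 shared peaks of 8q24, or 4.71% (2.77% to 7.89%), beside 6.27% of all shared peaks. None of them lay in the MYC window, but its 8 shared peaks are too few to set this count of 0 against these shares. Each of the 13 exceeded 10 in both lists, the lowest values being 10.07 against Mock and 10.14 against input. The fold enrichments given below for these sites are thus tied to their place in the list and are no separate result. A gene was given for 2 of the 13. The EIF3H site lay in an intron from 117763290 to 117763966, 22891 bp from the nearest exon of NM_003756, and held 25 tags (16.2 to 36.9). EIF3H encodes a subunit of the translation initiation factor eIF3. The fold enrichment of the site was 11.33 against Mock and 12.67 against input. The EIF2C2 site lay in an intron from 141622614 to 141623299, 195 bp from the nearest exon of NM_012154, and held 20 tags (12.2 to 30.9) with a fold enrichment of 11.82 against both controls. EIF2C2, now AGO2, encodes the Argonaute protein that carries small RNAs to their target transcripts and can cleave them. Of 60 genes of 8q24 and its borders looked up by symbol, MYC and PVT1 among them, EIF3H was the only one named in the list of specific sites, and EIF2C2 was not among the 60.

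Both transcripts held further peaks. EIF3H, on the minus strand from 117726236 to 117837242, was crossed by 13 peaks, or 11.7 per 100 kb, with 14 to 57 tags. The transcript overlaps the densest 100 kb of 8q24. The region as a whole had 25.5 peaks per Mb (not per 100 kb), a much lower density than in this transcript. Of the 13 peaks, 5 were called against both controls, 7 only against Mock and 1 only against input. Over all 8q24 peaks these shares were 37.9%, 49.2% and 12.9%. The richest peak in EIF3H, from 117810962 to 117812664 with 57 tags and a fold enrichment of 6.43, was called only against Mock and was not the specific site. The first peak of the region, from 117726185 to 117726811, reached over the end of the transcript, and the peak from 117836423 to 117836851 (17 tags) lay close to its start. EIF2C2, on the minus strand from 141610446 to 141714827, was crossed by 5 peaks with 15 to 20 tags, of which 3 were called against both controls and 2 only against input.

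The 11 specific sites without a gene held 12 to 42 tags. The richest were the site from 122020263 to 122020961 with 42 tags (30.3 to 56.8) and the site from 146044571 to 146045514 with 40 tags (28.6 to 54.5), which had a fold enrichment of 10.98 and a score of 169.15 against both controls. The site from 118808188 to 118808732 held 21 tags, with a fold enrichment of 12.59 and 10.67, and the site from 123559532 to 123559948 held 17 tags, with 10.98 against both. A group of 4 sites lay between 137083124 and 138391368, with 12, 15, 20 and 18 tags and a fold enrichment of 10.07 to 10.14 against Mock. The remaining sites started at 132646478 (18 tags), 143486869 (12 tags) and 146270186 (16 tags), the last of them the final peak of the region. Apart from the 2 richest, the tag intervals of these sites overlap each other.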

How the data were processed

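ChIP-seq peak lists from DLD-1 cells were analysed, with 1 library per condition and groups taken from the sample records. Reads of 40 bp had been mapped by the authors with ELANDv2 of CASAVA 1.7, as in the submitters' processing notes, on the hg18 assembly (NCBI build 36.1). They called peaks with MACS 1.4.0beta at a P value cut-off of 1e-05. Tags per peak are a count deposited without normalization. The authors' score, fold enrichment (a ratio) and FDR (a percent) were used as deposited. Peaks of both lists were joined by identical coordinates with pandas 2.3.3 (Python 3.11.15), intervals came from scipy 1.17.1 and numpy 2.4.6, and plots from matplotlib 3.10.9. The overlap code was tested on 2000 simulated peaks and found all 800 that had been made to overlap. Shares have Wilson intervals and counts exact Poisson intervals. No test between conditions was made. The peaks, the MYC window and the gene list were chosen with earlier results of these data known. Named peaks are those in the list of specific sites, the 5 with the most tags in 8q24 and in the MYC window, the highest fold enrichment per list and the 2 on each side of the boundary. The peaks of the MYC window called against input, those crossing EIF3H and EIF2C2, the sixth-richest peak of the window and the series of neighbouring peaks were added after their values were seen. Alternatives were a stricter P value or fold enrichment, each list alone, merging, other overlaps and windows. Of the 60 genes, 53 were found in RefSeq (GRCh38.p14). No sequence is printed.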

Additional observations from a re-analysis of the deposited data

How the results depend on the processing

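Of the 47 alternative values, 27 left their result unchanged. Unchanged was taken as within 1.5 times for counts and densities, 1 SD for medians and the Wilson interval for shares. The SD over the peaks of 8q24 was 10.2 tags and 259 bp, which is a wide limit for a median. A P value of 1e-10 or less in every list that held the peak left 24 peaks, 2 of them specific sites. They had a median of 37.5 tags and 929 bp, with 0.840 per Mb in 8q24 and 2.67 per Mb in the MYC window. These densities are not on equal terms. A peak called only against Mock, as were 65 of 74 in the MYC window, had to pass in 1 list, but a shared peak in both. In the Mock list alone, 55 of 634 peaks of 8q24 passed (6.73% to 11.1%). In the MYC window 8 of 73 did (5.66% to 20.2%), and these intervals overlap. With fold enrichments of 10 or more, again in every list that held the peak, there were 47 peaks. They gave 1.65 per Mb and 1.67 per Mb in the MYC window, with 27.7% in both lists. A shared peak again had to pass in both lists, so these densities and this share are not on equal terms either. In the Mock list alone, 59 of 634 peaks of 8q24 reached this fold enrichment (7.28% to 11.8%). In the MYC window 5 of 73 did (2.96% to 15.1%). The list against input alone gave 370 peaks, 13.0 per Mb and 3 per Mb in the MYC window, and peaks in both lists gave 276, 9.66 and 2.67 per Mb. The lower counts follow from keeping fewer peaks. Both stricter limits asked more of shared peaks, and beyond that the cause of the other changes was not tested. The 13 specific sites of 8q24 all had fold enrichments above 10 in both lists. Moving this limit to 9 or 11 gave 32 or 2 peaks instead of 13. Leaving out the MYC window, an alternative added after seeing the data, gave 25.6 peaks per Mb. Moving the MYC window by 1 Mb, also added for this share after seeing the data, raised the share of its peaks called against input from 12.2% to 24.2% (towards the centromere) or 28.9% (towards the telomere), while its density of 30.3 or 27.7 per Mb stayed within these limits. Merging moved none of the counts or densities recomputed with it beyond these limits. The other definitions of overlap left the share in both lists at 37.9%. They had little to act on, because no peak of 8q24 overlapped a peak of the other list without identical coordinates. These unchanged shares are among the 27 and are no separate support. A peak of 12 tags has an interval of 6.20 to 21.0 tags, which limits any ranking of peaks. No paired analysis was possible because there was a single library for every condition.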

Other observations

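The empirical FDR, which MACS obtained by exchanging ChIP and control, was high in the lists as a whole and in 8q24 alike. In the list against Mock it lay between 33.42% and 100% in 8q24, with a median of 45.1% beside 47.1% for the whole list. In the list against input it lay between 65.48% and 100%, with a median of 78.4% beside 74.0%. It was at 100% for 10 of the 634 peaks of 8q24 called against Mock (1.58%, beside 0.694% of the whole list) and for 119 of the 370 called against input (32.2%, beside 20.9%). These were peaks with high rather than low scores. The 10 peaks against Mock were among the 55 with a score of at least 100, 4 of them lay in the MYC window, and the 3 tag-richest peaks of that window were among them. The 119 peaks against input included all 15 with a score of at least 100. In the EIF3H transcript, the specific site had an FDR of 33.92% against Mock and 100% against input.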
